A study of Mus musculus with 16 samples.

Results

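CD8+ T cells of MC38 tumors from Aire+/+ mice were compared between 1 library from animals given anti-PD1 and 1 library from animals given the isotype control antibody. Members were barcodes of the CD8+ sort with at least 1 UMI of Cd8a or Cd8b1 and at least 1 of Cd3e, Cd3d or Cd3g, no more than 1 UMI of C1qa, C1qb and C1qc together, and 0 of Siglech. The gate kept 4548 of the 4910 barcodes of both libraries, out of 37609 barcodes in the 16 libraries of the series. It kept 2481 of 2688 barcodes under isotype and 2067 of 2222 under anti-PD1. The wider study set Aire-/- mice, which lack the thymic regulator that displays tissue antigens to developing T cells, beside Aire+/+ mice, under either antibody, in tumor and spleen, with CD45+ and CD8+ sorts. All mice were of the C57BL/6 background and 8 weeks old. They carried MC38, a mouse colon tumor line, and received 5 mg/kg of antibody on day 0 and again on day 3, day 7, day 10 and day 14, with tissue taken on day 19. The Aire+/+ mice carried no deletion, and the control animals received an antibody as well. Tumors of 4 to 6 mice per condition were pooled before sorting, so each library is a mixture of animals that cannot be separated, and mouse-to-mouse spread was not measured.

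PD-1, encoded by Pdcd1, is an inhibitory receptor that T cells display after antigen recognition. Its ligands on tumor and myeloid cells dampen signaling from the T cell receptor and from CD28, and blocking antibodies lift that restraint. CD8+ T cells in tumors range from stem-like cells that carry Tcf7, through cells rich in granzymes, to exhausted cells that display several inhibitory receptors together. The comparison asked which transcripts differed in abundance between CD8+ tumor T cells under blockade and under control antibody.

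The gated cells held 32127507 UMIs under isotype and 24916846 under anti-PD1, with medians of 10994 and 10123 UMIs per cell and of 2783 and 2701 genes. Mitochondrial transcripts took a median of 2.10% and 2.06% of a cell's UMIs. The 2 libraries shared 5 cell barcodes, where the other 119 pairs of libraries shared 2 to 18. Levels are given as UMIs of a gene per 1000000 UMIs of the gated cells of a library (CPM) with an exact Poisson 95% interval. Log2 ratios are anti-PD1 over isotype with an exact conditional 95% interval. Both cover counting error only, and with no replicate libraries no difference was tested. In the isotype and the anti-PD1 library, in that order here and below, Cd8a stood at 1357 CPM (1344 to 1370) and 1451 (1436 to 1466), and Cd3e at 1277 and 1481, levels that the gate had a part in. Before the gate, 25 of 2688 and 20 of 2222 barcodes held no Cd8a or Cd8b1 UMI. Among T cell genes that the gate did not use, Thy1, the most abundant of the 12 CD8 T cell identity genes, was at 1921 and 1918 CPM and Lck, a kinase of the T cell receptor, at 611 and 670.0. Cd4 gave 40 and 33 UMIs in all.

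Most transcripts differed little. Of 10683 genes with at least 50 UMIs over the pair, 190 (1.78%) were at least 1.5-fold higher under anti-PD1 and 247 (2.31%) at least 1.5-fold lower, and 33 (0.309%) and 53 (0.496%) passed 2-fold. The median log2 ratio was 0.01, with 5% of genes under -0.40 and 5% over 0.40. Among the 5448 genes with at least 1000 UMIs, 99.1% lay within 1.5-fold, 37 were higher and 11 lower. Among the 11 lower ones, listed after their values were seen, were Gzmg, Klra5, Gzme, Ccdc184, Eomes, Gstm5, Myc, Gzmd, Dapl1 and Lta. They include 3 granzymes, the transcription factors Eomes and Myc, and the cytokine Lta.

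**Figure D1:**
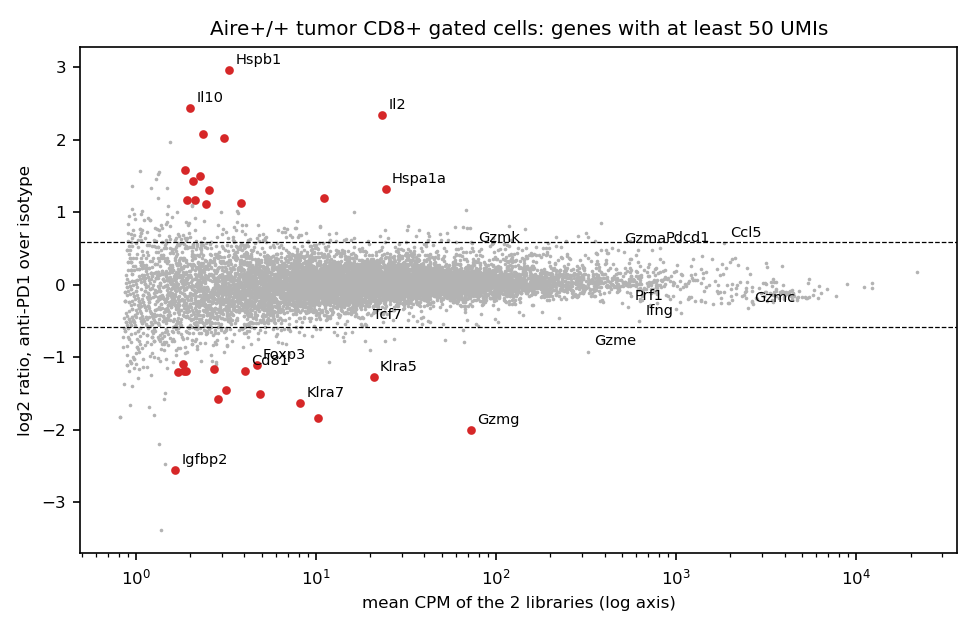
Log2 ratio of anti-PD1 over isotype (vertical axis) against the mean CPM of both libraries (horizontal log axis) for the 10683 genes with at least 50 UMIs in gated Aire+/+ tumor CD8+ cells. Red points are the 15 highest and 15 lowest genes with at least 100 UMIs, dashed lines mark 1.5-fold, and the widest ratios sit at low levels.

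Among genes with at least 100 UMIs, the highest ratios came from genes that few cells carried. Il2, the T cell growth factor, rose from 7.72 CPM (6.79 to 8.74) to 38.9 (36.5 to 41.5), a log2 ratio of 2.33 (2.13 to 2.54). Yet 15 anti-PD1 cells and 16 isotype cells held a UMI of it, and the 5 richest cells held 97.9% and 90.7% of its UMIs. Without those 5 cells in each library the log2 ratio of Il2 was 0.17. The small heat shock gene Hspb1 had the highest ratio, 2.96 (2.33 to 3.65), from 24 UMIs in 8 cells against 145 UMIs in 18 cells. The regulatory cytokine Il10 was at 2.44 (1.72 to 3.22), from 20 and 84 UMIs in 6 and 12 cells. Hspa1a, an inducible chaperone, was at 1.32 (1.15 to 1.48), with 43.1% and 43.5% of its UMIs in the 5 richest cells. Osgin1, an oxidative stress response gene, was spread more widely, in 165 and 240 cells, at 1.20 (0.96 to 1.45). The remaining genes of the 15 highest were Rln3, Prss2, Grb7, Ppp2r2c, Ovol2, Mmp14, C1qb, Ccl7, Igkc and Mtus2, with log2 ratios from 1.12 to 2.08 and at most 131 UMIs in a library. The gate holds C1qb to 1 UMI a cell. With all barcodes and no gate, C1qb was at 0.50, Mmp14 at 0.58 and Igkc turned to -0.93.

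Among genes with at least 100 UMIs, the 15 lowest ratios held Gzmg, the Ly49 receptor genes Klra7 and Klra5, and Foxp3, the regulatory T cell factor. Igfbp2 was the lowest of these 15 at -2.56 (-3.56 to -1.68), with 91 UMIs in 7 isotype cells and 12 in 3 anti-PD1 cells. Without the 5 richest cells of each library 3 and 0 UMIs of Igfbp2 were left, too few for a ratio. Gm4858 was at -1.84 (-2.15 to -1.54), the type 2 cytokine Il13 at -1.57 (-2.14 to -1.03) and the actin-severing gene Scin at -1.51 (-1.94 to -1.11). Foxp3 fell from 206 UMIs in 36 cells to 74 UMIs in 17 cells, a log2 ratio of -1.11 (-1.51 to -0.72). Atp1b1, Apold1, Cd81, Igsf3, Wdr89 and B230217O12Rik were at -1.45 to -1.16. Apold1 was at 0.78 (-0.76 to 2.41), from 7 and 10 UMIs, after every cell was thinned to 2000 UMIs. Cd81 was at 0.12 (-0.93 to 1.13) in cells with at least 2 UMIs of Mki67 and Top2a, called cycling cells here.

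Granzyme and perforin genes, the contents of killing granules, moved apart from each other. Of 18 measured members, 1 was at least 1.5-fold higher and 3 lower, beside 1.78% and 2.31% of all genes, with a median log2 ratio of 0.06 beside 0.01 over all genes. The 3 lower ones were neighbors on chromosome 14 (GRCm38.p6), where Gzme starts at 56117619, Gzmd at 56129556 and Gzmg at 56156581. Gzme went from 423 CPM (416 to 430) to 223 (217 to 229), a log2 ratio of -0.92. Gzmd went from 494 (486 to 501) to 292 (285 to 299), at -0.76. Gzmg went from 116 (112 to 120) to 28.9 (26.8 to 31.1), at -2.00. In cycling cells Gzme and Gzmd stayed within 1.5-fold, at -0.38 and -0.40. These genes are close copies of each other, so reads may be split between them and single values are uncertain. The 5 richest cells held 46.4% of the Gzmg UMIs under isotype and 59.2% under anti-PD1. In the same cluster Gzmc was at 2784 and 2219 CPM, a log2 ratio of -0.33 that turned to 0.27 in cycling cells. Gzmf stood at 3316 and 3393 and Gzmb, the main granzyme of the list, at 3529 and 3636, and in cells that were not cycling their ratios were -0.28 and -0.16. Prf1, the pore-forming protein, was at 599 and 485 CPM, a log2 ratio of -0.30 (-0.34 to -0.27).

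The granzymes encoded on chromosome 13 had ratios above 0. Gzma was at 397 CPM (390 to 404) and 554 (545 to 563), a log2 ratio of 0.48 (0.45 to 0.52). Gzmk, a mark of less differentiated effector cells, was at 60.9 and 86.3 CPM, a ratio of 0.50 (0.41 to 0.59). Serpinb9, which shields the killer cell from its own granzyme B, was the member past 1.5-fold, at 253 and 398 CPM, a log2 ratio of 0.66 (0.61 to 0.70). By cells, thinned to 2000 UMIs each, Gzme was found in 10.1% (8.96 to 11.4) of isotype and 6.48% (5.46 to 7.63) of anti-PD1 cells, against 15.8% and 10.8% unthinned. Serpinb9 was found in 28.3% and 40.0% of thinned cells, against 61.0% and 71.3% unthinned. Intervals for shares of cells are exact Clopper-Pearson 95% intervals. In 1847 tumor macrophage barcodes of the CD45+ sort, thinned alike from a median of 14690 UMIs, these shares were 0.162% and 1.84%. The summed list depended on which cells were counted. It was at 0.02 in all gated cells, 0.29 in cycling cells and -0.13 in the others.

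**Figure D2:**
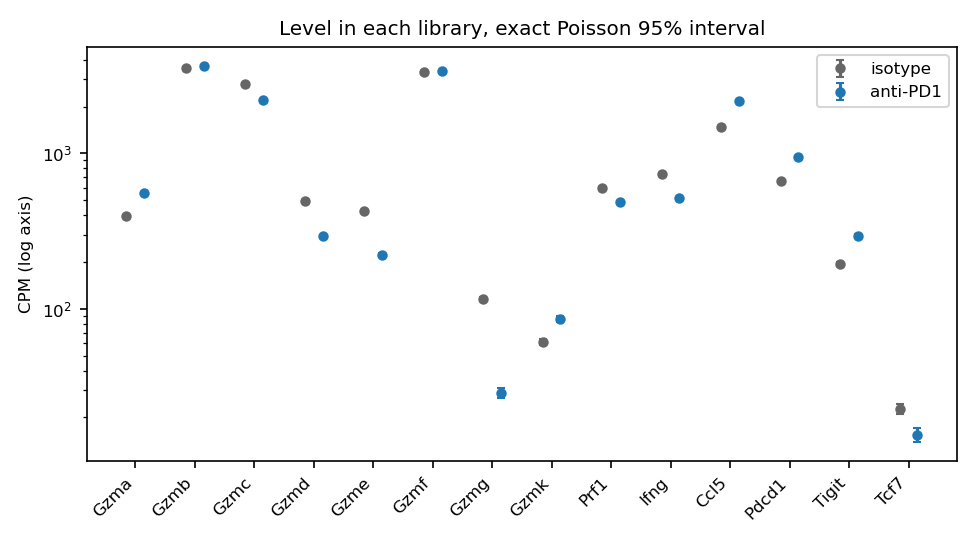
CPM on a log axis for granzymes, perforin, cytokines, receptors and memory genes in gated Aire+/+ tumor CD8+ cells under isotype (gray) and anti-PD1 (blue), 1 library each, with exact Poisson 95% intervals that are mostly smaller than the points. Gzmd, Gzme and Gzmg lie lower under anti-PD1, and Gzma, Gzmk, Ccl5, Pdcd1 and Tigit higher.

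Cytokine genes were mixed. Ifng, the main effector cytokine and most abundant of the list, was at 732 CPM (722 to 741) and 518 (509 to 527), a log2 ratio of -0.50 (-0.53 to -0.47). Lta was at 79.9 and 51.7, at -0.63 (-0.73 to -0.53), and Ltb at 676 and 581, at -0.22. Areg, an epidermal growth factor family ligand, was at 44.8 and 91.2, at 1.03 (0.93 to 1.12), with 23.4% and 20.6% of UMIs in the 5 richest cells. Of the 12 measured genes of the effector cytokine list, which does not hold Il13, 3 were past 1.5-fold upward, Areg, Il2 and Il10, beside 1.78% of all genes, and Lta was the 1 downward, beside 2.31%. Ccl5, a chemokine of effector and memory CD8 cells, was at 1473 CPM (1460 to 1486) and 2187 (2169 to 2206), at 0.57 (0.55 to 0.59). It was found in 41.2% (39.2 to 43.1) and 51.7% (49.5 to 53.9) of thinned cells, 56.8% and 66.1% unthinned, and in 24.0% of thinned macrophages, which can express it. Ccl4 stood at 1600.5 and 1661 CPM, and none of the 7 measured genes of the lymphocyte chemokine list, which does not hold Ccl7, passed 1.5-fold.

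Inhibitory receptor transcripts were mostly more abundant under anti-PD1, by modest amounts. Of 17 measured members 15 had a ratio above 0, beside 52.7% of all genes, and the median was 0.26. Tigit alone passed 1.5-fold, beside 1.78% of all genes, from 195 CPM (190 to 199) to 295 (288 to 302), a log2 ratio of 0.60 (0.55 to 0.65). It lay within 1.5-fold in cycling cells, at 0.53, and in the others, at 0.56. With ribosomal protein and mitochondrial genes left out of the totals it was at 0.55, also within 1.5-fold. Pdcd1, which encodes the target of the antibody, was at 669 (660 to 678) and 949 (937 to 961), at 0.51 (0.48 to 0.53). Lag3 was at 754 and 935, Ctla4 at 484 and 617, and Klrc1, the most abundant, at 932 and 1064. Cd160 was on the other side, at 58.6 and 53.2. Pdcd1 was found in 59.5% (57.5 to 61.4) of thinned isotype cells and 71.7% (69.8 to 73.7) of thinned anti-PD1 cells, 80.2% and 89.7% unthinned, and in 0 of 1847 thinned macrophages. A count of 0 there allows a share of cells with a UMI of up to 0.162%, taken as 3 counts, and 1.25% of the same macrophages held a UMI unthinned. Per cell, the list took a median of 0.366% of UMIs (quartiles 0.227 and 0.505) under isotype and 0.464% (0.317 and 0.627) under anti-PD1, so the quartiles shifted together.

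Most transcription factors of effector and exhausted cells had ratios above 0, and few passed 1.5-fold. Among 28 measured members the median was 0.23, with 23 above 0 beside 52.7% of all genes. Nr4a1 and Maf were past 1.5-fold upward and Eomes downward, beside 1.78% and 2.31% of all genes. Nr4a1, induced by T cell receptor signals, was at 241 and 394 CPM, a log2 ratio of 0.71 (0.67 to 0.75), and Tox, a factor of exhausted cells, at 34.7 and 46.1, at 0.41 (0.29 to 0.53). Maf was at 0.65 (0.28 to 1.01) and at -0.038 (-0.87 to 0.77) in cycling cells. Bhlhe40 was the most abundant, at 914 and 1100. None of 39 measured T cell receptor signaling genes passed 1.5-fold, with a median of 0.12 and 32 above 0. The largest ratios in that list were those of the signal-tuning surface proteins Cd5, at 0.54 (0.47 to 0.61), and Cd6, at 0.53 (0.48 to 0.58). Costimulatory receptors had a median of 0.17 over 14 genes with none past 1.5-fold, and JAK-STAT feedback and cytokine receptor genes 0.14 over 32 with none.

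Genes of naive, memory and stem-like cells gave no single direction. Of 25 measured members 4 were at least 1.5-fold lower, beside 2.31% of all genes, and 0 higher, with 9 above 0 and a median of -0.16. Among the lower ones, Eomes was at 23.5 and 13.7 CPM, Dapl1 at 34.2 and 20.3, and Cxcr5 had a log2 ratio of -0.62 (-1.10 to -0.15). Dapl1 in cycling cells, at -0.46, and Cxcr5 after thinning, at -0.35, stayed within 1.5-fold. Tcf7, which maintains stem-like cells, was at 22.7 (21.1 to 24.4) and 15.4 (13.9 to 17.0), at -0.56 (-0.74 to -0.38). It was found in 5.32% (4.47 to 6.28) and 3.29% (2.56 to 4.15) of thinned cells, 14.3% and 9.82% unthinned, and in 0 of 1847 thinned macrophages, or 0.271% unthinned. Ly6c2, the most abundant member of the list, was at 1208 and 1586 CPM and the cytokine receptor Il7r at 227 and 291, so the summed list was at 0.15. Among chemokine and homing receptors 19 of 22 lay above 0, beside 52.7% of all genes, with the integrins Itgae at 0.76 (0.60 to 0.92) and Itga4 at 0.59 (0.43 to 0.75), or 0.23 after thinning and 0.43 in cycling cells, while Cxcr6 was at -0.04.

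Type I interferon response genes moved together by a small amount. Of 51 measured members 50 had a ratio above 0, beside 52.7% of all genes, with a median log2 ratio of 0.31. Past 1.5-fold upward were 2, beside 1.78% of all genes. Mx1, an antiviral GTPase, was at 43.3 CPM (41.1 to 45.7) and 74.9 (71.6 to 78.4), at 0.79 (0.69 to 0.89). Rsad2, encoding viperin, was at 37.0 and 60.1, at 0.70 (0.59 to 0.81), or 0.45 after thinning and 0.53 in cycling cells, and Ifit1 at 77.0 and 113, at 0.56 (0.48 to 0.63). Irf7, which amplifies the response, was at 0.53 (0.48 to 0.58). Ifi27l2a, the most abundant, was at 1784 and 2211 CPM, and Ifi44 was the exception at -0.33 (-0.79 to 0.13), or 0.16 in cycling cells. Per cell the list took a median of 0.848% of UMIs under isotype and 1.04% under anti-PD1, and the summed list was at 0.29 in all gated cells, 0.30 in cycling and 0.24 in other cells. Genes of the interferon-gamma response and antigen presentation had a median of 0.14 over 39 members, with H2-K1 at 3543 and 4226 CPM and B2m at 3012 and 3073. Gbp10, at 0.71 (0.50 to 0.93), was past 1.5-fold upward and Ciita downward, beside 1.78% and 2.31% of all genes. Ciita was at -1.39 (-2.41 to -0.47), from 44 and 13 UMIs, or -0.35 with no gate and -0.33 in cycling cells.

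RefSeq promoter windows of the type I interferon list (300 bases, GRCm38.p6) were searched on both strands for GAAA, any 2 bases and GAAA again. This is the core of the interferon-stimulated response element. The motif was in 21 of the 40 list members with a window (52.5%) and in 1079 of 27025 genes overall (3.99%). The list was drawn up as interferon response genes, so its higher share does not depend on the ratios here and says nothing about them. A match is a description of the letters and not a measured binding site. The windows of Rsad2 and Ifit1, next by ratio after Mx1, for which no window was used here, are shown 5′ to 3′ with the motif, in either orientation, in capitals. That of Rsad2 lies at chr12:26456403-26456702 on the minus strand and that of Ifit1 at chr19:34640639-34640938 on the plus strand.
Rsad2: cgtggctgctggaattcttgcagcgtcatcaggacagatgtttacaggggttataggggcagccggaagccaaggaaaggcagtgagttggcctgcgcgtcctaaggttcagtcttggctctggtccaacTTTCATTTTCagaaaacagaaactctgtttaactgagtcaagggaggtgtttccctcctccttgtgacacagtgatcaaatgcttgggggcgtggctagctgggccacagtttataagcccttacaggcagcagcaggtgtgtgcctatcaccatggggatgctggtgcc
Ifit1: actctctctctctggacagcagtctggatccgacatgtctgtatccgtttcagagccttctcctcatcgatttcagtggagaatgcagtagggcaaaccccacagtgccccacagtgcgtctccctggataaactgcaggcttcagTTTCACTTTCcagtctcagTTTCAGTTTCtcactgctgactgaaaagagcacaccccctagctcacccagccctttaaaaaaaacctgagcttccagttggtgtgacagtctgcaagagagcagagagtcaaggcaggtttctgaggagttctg

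Immediate early genes, switched on within minutes of stimulation, had a median of 0.28 with 26 of 34 above 0, beside 52.7% of all genes. Zfp36l2, an RNA-decay factor, was at 271 CPM (265 to 277) and 489 (481 to 498), a log2 ratio of 0.85 (0.81 to 0.89). Gadd45b was at 106 and 182, at 0.78 (0.71 to 0.84), or 0.31 in cycling cells. Junb, the most abundant, was at 1982 and 2396, and Egr1 at 77.1 and 114. Others in the list were lower. Myc was at 65.4 and 38.4, at -0.77 (-0.88 to -0.66), and Fos at 260 and 189, at -0.46 (-0.51 to -0.41). Myc was found in 9.79% (8.65 to 11.0) and 5.03% (4.13 to 6.06) of thinned cells, 28.1% and 16.7% unthinned, and in 8.77% of thinned macrophages, so no difference was read from these shares. Zfp36l2 was found in 37.4% and 53.2% of thinned cells, 77.8% and 89.1% unthinned, and in 51.6% of thinned macrophages, so none was read from these either. Heat shock genes had a median of 0.19 over 17, with 4 past 1.5-fold upward, Hspa1b and Hmox1 with the 2 named earlier, beside 1.78% of all genes. In cells that were not cycling Hspa1b, at 0.72 in all, was at 0.31 and Hmox1, at 0.66 in all, at 0.54, both within 1.5-fold. Hspa8, the most abundant, was at 2220 and 2271 CPM.

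Natural killer type receptors moved both ways. Of 21 measured members 6 were at least 1.5-fold lower, beside 2.31% of all genes, and 2 higher, beside 1.78%. The 6 were Ly49 genes, a cluster of near-identical inhibitory and activating receptors on chromosome 6, a grouping made after the values were seen. Klra5 was at 29.6 CPM (27.7 to 31.5) and 12.2 (10.9 to 13.7), a log2 ratio of -1.28, with UMIs in 118 and 46 cells. Klra7 was at 12.4 and 3.97, at -1.64 (-1.97 to -1.32), in 64 and 20 cells. Klra1, Klra6, Klra9 and Klra3 had ratios of -3.39, -1.80, -1.15 and -0.59 from at most 318 UMIs in a library. In cycling cells Klra7 was at -0.41, Klra3 at -0.26 and Klra9 at 3.48 (1.36 to 6.66), from 2 and 14 UMIs. Reads may be assigned among these copies unevenly. The more abundant lectin receptors did not follow, with Klrd1 at 911 and 1024 CPM. The higher ones, Klrg1 at 0.76 (0.44 to 1.08) and Klrb1a at 1.34 (0.65 to 2.07), were under 10 CPM, and Klrg1 was at 0.27 in cells that were not cycling and 0.30 after thinning.

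Cell cycle transcripts gave no single direction. Cells with at least 2 UMIs of Mki67 and Top2a made up 27.0% (25.3 to 28.8) of isotype and 20.1% (18.4 to 21.9) of anti-PD1 cells, and 8.14% (7.10 to 9.29) and 6.24% (5.24 to 7.37) after thinning, beside 0.866% of thinned macrophages. Top2a was at 234 and 211 CPM and Mki67 at 76.5 and 70.8. Yet the 41 genes of G2 and mitosis had a median of 0.00 and a sum at 0.04, with 21 above 0. The 34 DNA replication genes had a median of -0.08 with 7 above 0, beside 52.7% of all genes, and none in either list passed 1.5-fold. Within cells past the 2 UMIs the G2 and mitosis sum was 8430 CPM under isotype and 10358 under anti-PD1. Replication-dependent histone genes had a median of 0.01 over 21, and Hist1h1e, the most abundant, was at 132 and 118 CPM. Hist1h2bn, at 0.88, and Hist2h2bb, at 0.67, were past 1.5-fold upward, beside 1.78% of all genes. Hist1h2bn was at 0.46 by the mean over cells, and Hist2h2bb at 0.14 in cells that were not cycling and 0.28 without its 5 richest cells, all within 1.5-fold.

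Most glycolysis and hypoxia genes had ratios below 0, by small amounts. Of 37 measured members 7 lay above 0, beside 52.7% of all genes, and 4 were at least 1.5-fold lower, beside 2.31%, with a median of -0.18. Gapdh was at 4674 CPM (4651 to 4698) and 4068 (4043 to 4093), and Ldha at 2138 and 1801, at -0.25 (-0.26 to -0.23). The oxygen-regulated genes Egln3, at -0.65 (-0.85 to -0.45), and Vegfa, at -0.84 (-1.32 to -0.39), were past 1.5-fold from 19.2 and 4.11 CPM under isotype, as were Car12 and Ak4. Within 1.5-fold were Egln3 and Ak4 in cycling cells, at -0.43 and -0.076, Car12 in the others, at -0.32, and Vegfa with no gate, at -0.24, and in cells that were not cycling, at -0.52. Ribosome biogenesis and Myc target genes had a median of -0.21, with 3 of 27 above 0, Myc past 1.5-fold and Srm at -0.51 (-0.63 to -0.39). Ribosomal protein genes took 25.9% of UMIs under isotype and 23.5% under anti-PD1. Nuclear subunits of oxidative phosphorylation were close to level, with a median of -0.03 over 76, 22 of them above 0, and none past 1.5-fold. Bcl2 family genes had a median of 0.04 over 19, with Bcl2 itself at 204 and 157 CPM.

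**Figure D3:**
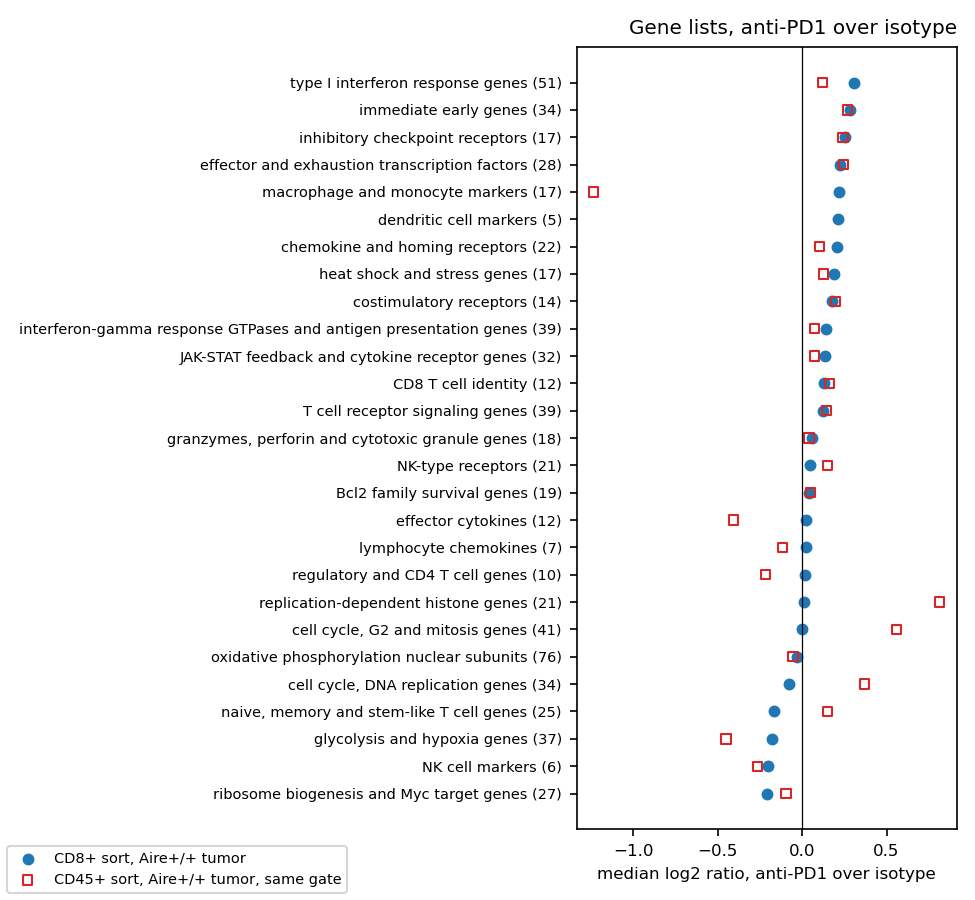
Median log2 ratio of anti-PD1 over isotype for gene lists with at least 5 measured members, number in parentheses, in the CD8+ sort (blue) and in cells of the CD45+ sort passing the same gate (red squares, where at least 5 were measured). Type I interferon, immediate early and inhibitory receptor lists are on the higher side in the CD8+ sort, and glycolysis and ribosome biogenesis lists on the lower side.

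Markers of other cells differed in part between the libraries. Of 26 macrophage and monocyte markers 17 were measured, 4 of them at least 1.5-fold higher, beside 1.78% of all genes. These were Lyz2 and the C1q genes, whose level the gate caps at 1 UMI a cell, so nothing was read from the latter. The list summed to 2083 CPM under isotype and 2454 under anti-PD1, most of it Ly6c2, which CD8 T cells express. C1qb gave 42 and 73 UMIs and C1qa 34 and 48 under that cap. Of markers outside the gate, Lyz2 gave 43 and 61, Csf1r 6 and 4 and Adgre1 1 and 3. With no gate the summed list was at 0.00 and Lyz2 turned to -1.12, and after thinning C1qa was at -0.12 (-1.46 to 1.19). Among 11 B cell markers Ighm, the most abundant, gave 578 and 261 UMIs, Igkc 77 and 131, and Cd79a 1 in each library, and the list summed to 24.3 and 19.5 CPM. Natural killer markers summed to 794 and 723 CPM, most of it Prf1, with 1 UMI of Ncr1 in each. Neutrophil markers summed to 1.65 and 3.29 CPM with S100a8 at 0 in both, and tumor and stromal markers to 14.8 and 15.2. Regulatory and CD4 T cell genes summed to 1472 and 1607 CPM, most abundant Ctla4. Dendritic cell markers summed to 715 and 754, most abundant Ccr7, which T cells also express. Xist was at 246 and 214 CPM, and Aire gave 2 UMIs in each library. The part of these cells in the ratios was not tested. Leaving out cells with Cd4 or with at least 2 UMIs of 6 other lineage genes gave 191 genes higher and 224 lower.

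The CD45+ sort of Aire+/+ tumors, in separate libraries, held 148 isotype and 206 anti-PD1 cells that passed the same gate. Both sorts may hold cells of the same pooled mice, so they are not known to be independent. Of 6327 genes measured there, 332 (5.25%) were at least 1.5-fold higher and 269 (4.25%) lower, with 53.4% above 0. Macrophage and monocyte markers differed between these cells, with 12 of 18 measured at least 1.5-fold lower under anti-PD1 and a median of -1.23. Cd74 was at 708 and 199.9 CPM there, H2-Aa at 158 and 11.5, and Lyz2 the other way, at 134 and 347. The list summed to a log2 ratio of -0.29, and the part of these transcripts in the values that follow was not tested. In this sort 44 of the 57 genes higher in the CD8+ sort and measured in both had a ratio above 0, 77.2% beside 53.6% of all genes measured in both. Of the 23 lower genes measured, 21 had a ratio below 0, 91.3% beside 46.4%. Past 1.5-fold the same way were 20 of the higher genes, 35.1% beside 5.24% of all, and 12 of the lower, 52.2% beside 3.97%. Gzme was at 193 and 39.7 CPM, Gzmd at 199 and 59.1, Gzma at 144 and 546.5, and Ccl5 at 1381 and 2713. Ifng was at 1128 and 642, and Pdcd1 at 452 and 709. Gzmb, at 3400 and 2269 CPM, and Areg, at 292.5 and 157, lay on the other side of 0 there. With no minimum of UMIs, 8 of the 15 highest and 10 of the 15 lowest genes had a ratio the same way in this sort as in the CD8+ sort. Genes with 0 UMIs in either library of this sort had no ratio here and were not counted as the same way. Among the highest these were Hspb1, with 0 and 9 UMIs, and Il2, with 0 and 7, both more abundant under anti-PD1. Among the lowest they were Igsf3, with 0 and 4, against its direction in the CD8+ sort, and Igfbp2, with 0 in both. Of the 15 highest genes 12 had under 50 UMIs in this sort, and the others went different ways. Ccl7 fell from 159 to 10 UMIs, a log2 ratio of -4.38 (-5.47 to -3.46), Hspa1a was at 2.80 (1.89 to 3.84) and Il10 at 0.052 (-0.69 to 0.81). Among the 12, Mmp14 was at -2.20 (-3.79 to -0.84) and Rln3 at -1.08 (-2.20 to -0.015), both against their direction in the CD8+ sort, and Prss2 was at 1.71 (0.49 to 3.14). The G2 and mitosis list had a median of 0.56, Tcf7 was at 0.20 (-0.44 to 0.85), and the type I interferon list had a median of 0.12 with 33 of 49 above 0.

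In CD8+ cells of Aire-/- tumors 251 of 10399 genes (2.41%) were at least 1.5-fold higher under anti-PD1 and 111 (1.07%) lower. Of 163 genes higher in Aire+/+ cells and measured there, 120 (73.6%) had a ratio above 0, beside 58.6% of all genes measured in both, and of 170 lower genes 102 (60.0%) had a ratio below 0, beside 41.4%. Ccl5 was at 1943 and 3886 CPM there and Gzmk at 72.7 and 125. Pdcd1 was at 801 and 784 and Tigit at 216 and 219, log2 ratios of -0.03 and 0.02. Gzme was at -0.33 and Ifng at -0.09. The glycolysis and hypoxia list had a median of -0.21, close to its value in Aire+/+ cells. In spleens of Aire+/+ mice 171 of 9924 genes (1.72%) were higher and 86 (0.867%) lower, with 45.5% above 0, and the type I interferon list had a median of -0.09. There 63 of 99 genes higher in tumor cells (63.6%) had a ratio above 0, beside 45.1% of all, and 57 of 133 lower ones (42.9%) a ratio below 0, beside 54.9%. In spleens of Aire-/- mice 146 of 9858 (1.48%) were higher and 202 (2.05%) lower, with 59.6% above 0. There 49 of 98 of the higher genes had a ratio above 0, beside 59.9% of all, and 55 of 127 of the lower ones (43.3%) a ratio below 0, beside 40.1%. No difference between these pairs was tested.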

How the data were processed

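Single-cell suspensions of pooled tumors or spleens were loaded on a Chromium instrument, and gene expression libraries were counted with Cell Ranger. The authors deposited UMI counts per gene row and called cell barcode, and the labels name GRCm38. The labels give a 3′ kit, while the methods also describe a 5′ kit for sorted cells whose T cell receptors were sequenced, as they were for the CD8+ sorts, and which kit made these libraries was not settled. Rows, most named by symbol, chromosome and strand, were summed by symbol, so that 25127 rows became 24495 symbols. UMIs of gated cells were summed per library and divided by the library's total. Genes with at least 50 UMIs over a pair were compared by size of the ratio, at least 1.5-fold, with 3 counts standing for 0. With 1 library in each group no test was possible and none was run. The text names the 15 highest and 15 lowest genes with at least 100 UMIs, and of 35 gene lists the most abundant members and those with the largest ratios. Other list members were named after their values were seen. The members and the lists were chosen with earlier results of these data known. Shares of cells were recomputed after thinning each cell to 2000 UMIs, and 0 gated cells of either library were shallower. Macrophage barcodes of the CD45+ sort had at least 10 C1q UMIs and 0 of Cd3 and Cd8 genes. No doublet caller was run and none were removed beyond the gate. Alternatives were other scalings, cell filters, gene minimums and a 2-fold threshold. Leaving out the 5 cells richest in a gene was added after the data were seen. The ratio and interval code was tested on simulated counts. Python 3.11.15, numpy 2.4.6, scipy 1.17.1, pandas 2.3.3 and matplotlib 3.10.9 were used. Promoter windows and coordinates came from RefSeq, GRCm38.p6. Genes with near-identical copies may share reads.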

Additional observations from a re-analysis of the deposited data

Results flagged for a closer look

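Among the genes looked at by name with at least 50 UMIs in each pair of libraries, a pair stood past 1.5-fold in opposite directions in Aire+/+ and Aire-/- tumor CD8+ cells. Apold1 had a log2 ratio of anti-PD1 over isotype of -1.20 in Aire+/+ cells and 0.98 in Aire-/- cells. Il1b gave 36 UMIs under isotype and 56 under anti-PD1 in Aire+/+ cells (1.12 and 2.25 CPM), against 57 and 16 in Aire-/- cells (2.82 and 0.741 CPM), a log2 ratio of -1.93 in the latter. In Aire+/+ cells neither direction held under every alternative. After thinning Apold1 was at 0.78 (-0.76 to 2.41) and Il1b at -0.41 (-2.37 to 1.38), from at most 10 UMIs in a library, and in cells that were not cycling Il1b was at -0.25 (-1.11 to 0.59). Below that minimum, 2 of the 15 highest and 15 lowest genes also lay in opposite directions past 1.5-fold, Hspb1, at 2.96 in Aire+/+ cells and -1.30 (-2.53 to -0.17) in Aire-/- cells, from 23 and 10 UMIs in the latter, and Igfbp2, at -2.56 and 4.30 (1.66 to 9.67), from 1 and 21 UMIs. Each value comes from 1 library per condition, and the difference between genotypes was not tested.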

How the results depend on the processing

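No paired analysis was possible because each condition had 1 library and the labels give no replicate numbers. The count of genes at least 1.5-fold higher, 190, stayed between 149 and 222 under other scalings, thinning and cell filters. The count of lower genes, 247, ran from 210 to 306 under the same alternatives with the gate kept. The balance moved with the scaling, at 149 higher and 292 lower with ribosomal protein and mitochondrial genes left out of the total, and turned at 222 higher and 210 lower after thinning. The lower count was 498 with all barcodes and no gate, and 371 without the 5 cells richest in each gene, an alternative added after the data were seen. With at least 20 UMIs over the pair the counts were 310 higher and 442 lower, with at least 200 UMIs 85 and 61, as fewer or more low-count genes entered, and at 2-fold 33 and 53. Some ratios past 1.5-fold changed sign. With no gate Igkc was at -0.93 and Lyz2 at -1.12. After thinning Apold1 was at 0.78, C1qa at -0.12, Il1b at -0.41 and the neutrophil list at -0.51. In cycling cells Cd81 was at 0.12, Maf at -0.038 and Klra9 at 3.48, and in other cells Il1b was at -0.25. No ratio was given where both counts were at most 3, as for Igfbp2 without its 5 richest cells and after thinning, and for Il2 and Il10 in cycling cells. For changes other than those from the gene minimum or the threshold, the cause was not tested. Of 1301 single gene values under the alternatives, 974 lay within the main value's counting interval, and the others moved beyond it. In 38 of the 1301, from 21 genes, the sign changed, 9 of these from a ratio past 1.5-fold. In 66, from 32 genes, a ratio past 1.5-fold came within it or changed sign. The ratios within 1.5-fold that changed sign included Gzmc, Ifi44, Ccr7, Top2a and Mki67 in cycling cells, and Gzmb, Gzmf and Ccl4 in cells that were not cycling. Precision at low counts is limited by depth, and intervals leave out the spread between mice.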
